A study of Mus musculus with 8 samples.

Results

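The clustered protocadherins are a family of cell-adhesion genes in 3 neighbouring clusters (alpha, beta and gamma) on mouse chromosome 18. They were examined in poly(A) RNA-seq of the hippocampus of 9-week-old mice. Members were chosen by gene name, as every row of the deposited count table whose name begins with Pcdha, Pcdhb, Pcdhga, Pcdhgb or Pcdhgc, which gave 59 of 46078 rows, 15 alpha, 22 beta and 22 gamma. The family was proposed with the genotype difference of its member Pcdhgb2 already known. All genotype values of the members are therefore given as a description and are not read as a test. The 4 T29-1 Cre libraries came from mice of the line Tg(Camk2a-cre)T29-1Stl, Cre+/-, and the 4 WT libraries from wild-type mice, all of strain C57BL/6J. The transgene puts Cre recombinase under the Camk2a promoter, which is active in excitatory neurons of the forebrain, and the labels name no floxed allele and no drug in either group. The title of the series names Syt2, a gene outside the family.

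Each alpha and each gamma gene has its own large first exon, with its own promoter, that is spliced to constant exons shared by the whole cluster, whereas beta genes have no constant exons. A single neuron uses a small set of these promoters, picked largely at random, with CTCF and cohesin bringing a chosen promoter to distant enhancers, while the C-type genes (Pcdhac1, Pcdhac2, Pcdhgc3, Pcdhgc4 and Pcdhgc5) are used by more neurons of a type. The proteins sit on the cell surface and bind identical proteins on another membrane, which lets a neuron tell its own branches from those of its neighbours. In bulk tissue a level is a sum over many neurons and glia, and fewer cells using a promoter cannot be told apart from less RNA per cell. No sequence of the family is printed here.

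The 8 libraries held 23358289 to 30882631 counts, of which 14054 to 21387 fell in member rows. The labels do not say that replicates are separate animals, so the spread given here is that between these samples, which may be technical. WT replicate 4 stood apart from the rest on the first principal component of log2 expression (26.1% of the variance, score -33.4 against -0.687 to 8.74 in the other 7). Markers of hippocampal principal neurons were abundant in every library, with a summed level of 7920 to 8510 CPM (counts scaled to the size of the library) in T29-1 Cre and 8370 to 8650 CPM in WT. GABAergic interneuron markers summed to 802 to 878 CPM in T29-1 Cre and 810 to 827 CPM in WT, and astrocyte markers to 1370 to 1500 and 1360 to 1500 CPM. Serotonergic markers, 2 of 4 of them under 1 CPM, summed to 4.95 to 7.14 CPM in T29-1 Cre and 5.35 to 6.17 CPM in WT. Choroid plexus markers summed to 24.7 to 51.6 CPM in T29-1 Cre and 21.9 to 27.1 CPM in WT, and 4 of 6 were under 1 CPM.

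All members with a position lie on the plus strand of chromosome 18 (build GRCm38, GENCODE M21 annotation). The alpha genes start with Pcdha1 at 36930184 and end together at or near 37187657. The beta genes lie in a row between 37264938, the start of Pcdhb1, and 37524479, the end of Pcdhb22. The gamma genes end together at or near 37841873, with Pcdhga1 (start 37661793) as the outermost and Pcdhgc5 (start 37819513) as the innermost. This arrangement bears on the counts, because the constant exons belong to many genes at once. For the members given a length, the annotation has 48.6 to 59.9% of the exon bases of an alpha gene and 31.5 to 66.8% of those of a gamma gene shared with another gene of the same strand, whereas 2 beta genes, the overlapping Pcdhb21 and Pcdhb22, share some and the other 20 share none.

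A read from a constant exon cannot be given to any single alpha or gamma gene, and the rule that the authors' counting applied to such reads is not given. For 14 of 53 members with a length, some stretch as long as a read also occurs in another gene, at most 5.74% of such stretches in a member. For 10 of 53, an annotated exon on the opposite strand covers part of the member's own bases, wholly in Pcdhga10 and by 63.5% in Pcdhb12, 52.4% in Pcdhga11 and 46.1% in Pcdhgc3. The library kit kept strand, but the strand setting of the counting is not given, so the counts of these members may hold antisense reads.

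A few names occurred on several rows. Pcdha4, Pcdha11 and Pcdhga8 each had 2 rows, which were kept apart and given no length, and no row was named Pcdhgc4, which is not analysed here under that name. A Pcdhga8 row stood between those of Pcdhgc3 and Pcdhgc5, where the annotation places Pcdhgc4. Which gene that row counts was not tested. Of the 59 rows, 58 held at least 1 count and 55 (12 alpha, 21 beta and 22 gamma) passed the filter on low counts. Pcdha8, with 6 to 16 counts per library, Pcdhb1, with 0 to 5, and both rows of Pcdha4, with 1 to 6 and with 0 counts, did not pass. For Pcdha4 the annotation has 91.4% of the exon bases shared with another gene of the same strand. The part of this sharing in its low counts was not tested, so they do not give its expression.

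The gamma cluster held most of the family's reads. Its rows summed to 414, 429, 421 and 423 CPM in T29-1 Cre libraries 1 to 4, against 430, 395, 424 and 368 CPM in WT libraries 1 to 4. The beta rows summed to 161, 173, 170 and 170 CPM in T29-1 Cre and 158, 163, 178 and 144 CPM in WT. The alpha rows summed to 92.8, 101, 99.9 and 107 CPM in T29-1 Cre and 104, 90.6, 96.5 and 74.8 CPM in WT. In all 3 clusters the genotypes overlapped, and WT replicate 4 was the lowest of the 8 libraries. As a share of all member counts, gamma took 61.1 ± 0.654% in T29-1 Cre and 61.6 ± 0.952% in WT, beta 24.4 ± 0.225% and 24.5 ± 1.14%, and alpha 14.5 ± 0.582% and 13.9 ± 0.936% (SD, n = 4 each). The genotype means of each share differed by less than the SD in WT. For alpha they differed by slightly more than the SD in T29-1 Cre, and WT replicate 4 had the lowest alpha share, at 12.7%.

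**Figure D1:**
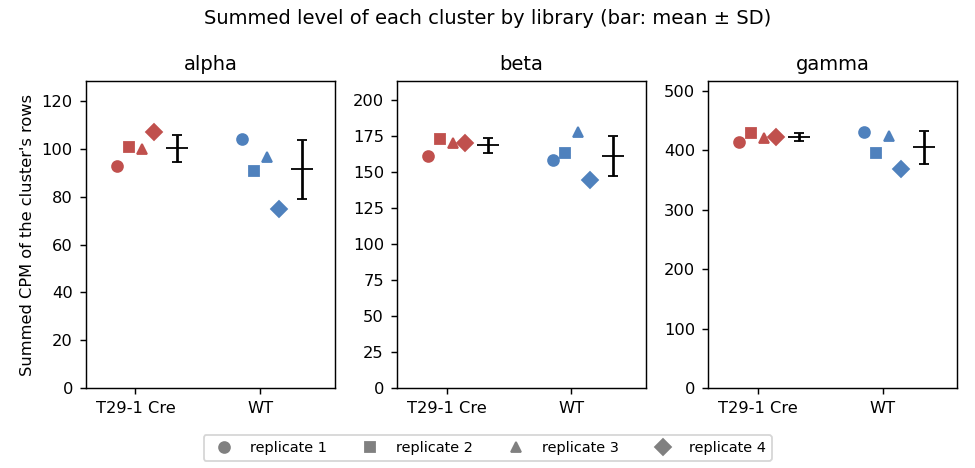
Summed CPM of the alpha, beta and gamma rows in each library, T29-1 Cre left of WT. Points are libraries, shaped by replicate number, and bars give the mean ± SD of 4 libraries. WT replicate 4 is the lowest point in each panel, at 74.8, 144 and 368 CPM.

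To compare members with each other, levels were expressed as CPM per kilobase of exon that no other gene of the same strand shares. For alpha and gamma genes these bases are mainly the gene's own first exon, at the 5′ end of the transcript, whereas for beta genes they run to the 3′ end. The part that this plays in differences of level between clusters was not tested. The lowest rank correlation of the 53 members' levels between any 2 libraries was 0.936 (Spearman, across genes of 1 family, which are not independent).

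Among the 53 members with a length, the C-type genes other than Pcdhac1 were the highest. Pcdhgc4, which had no row of its name, was left out. Pcdhgc3 had 26.5 ± 0.399 CPM per kb in T29-1 Cre and 25.8 ± 1.48 in WT (SD, n = 4 each). Pcdhgc5 had 23.3 ± 0.541 CPM per kb in T29-1 Cre and 22.3 ± 2.01 in WT. Pcdhac2, which mouse studies found to be needed for the spread of serotonergic axons into their target areas, followed at 16.0 ± 1.47 CPM per kb in T29-1 Cre and 14.8 ± 2.33 in WT. The C-type gene Pcdhac1, by contrast, had 1.47 ± 0.118 CPM per kb in T29-1 Cre and 1.39 ± 0.15 in WT, within the range of the ordinary alpha genes. Pcdhgc3 was above Pcdhgc5 in all 8 libraries although their ranges over libraries overlapped, and the range of Pcdhgc5 lay above that of Pcdhac2.

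Together the 4 C-type rows, without Pcdhgc4, held 35.5 to 36.6% of member counts in T29-1 Cre libraries and 35.7 to 37.2% in WT libraries. Within the alpha cluster Pcdhac1 and Pcdhac2 held 49.7 to 53.5% of counts in T29-1 Cre and 51.0 to 54.2% in WT. Within the gamma cluster Pcdhgc3 and Pcdhgc5 held 45.9 to 47.5% in T29-1 Cre and 46.5 to 47.3% in WT. About as many alpha reads thus came from these C-type rows as from the 13 other alpha rows, nearly all of them from Pcdhac2.

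**Figure D2:**
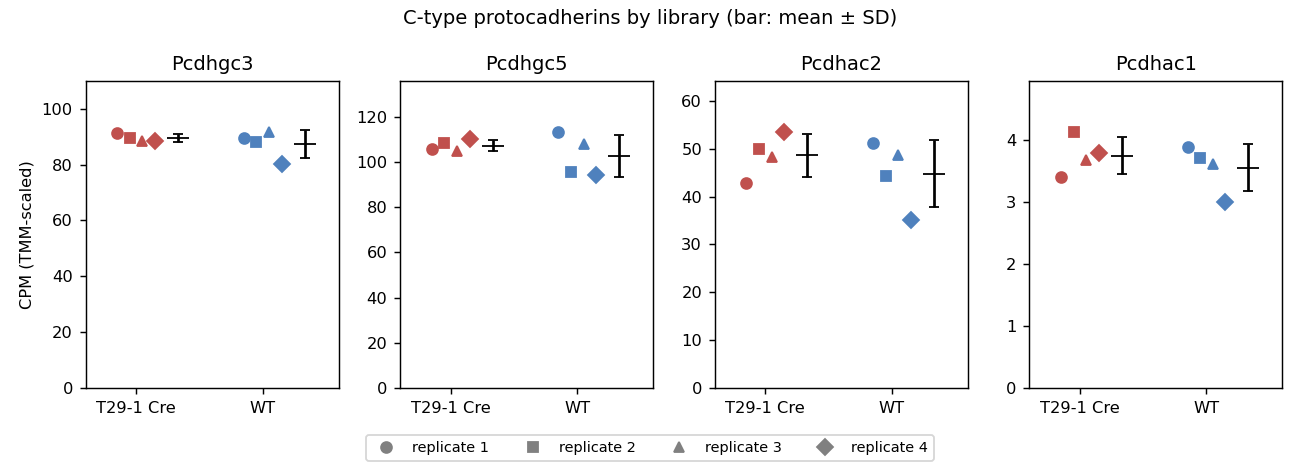
CPM of the C-type members Pcdhgc3, Pcdhgc5, Pcdhac2 and Pcdhac1 in each library, T29-1 Cre left of WT, each panel with its own axis from 0. Points are libraries, shaped by replicate number, and bars give the mean ± SD of 4 libraries. The genotypes overlap in every panel, and Pcdhac1 stays below 5 CPM while Pcdhgc3 lies between 80.1 and 91.5 CPM.

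Among the 49 other members with a length the median level was 1.87 CPM per kb and the range 0.0377 to 10.3. The 18 gamma genes other than C-type had a median of 3.81 CPM per kb, the 9 alpha genes 1.80 and the 22 beta genes 1.56. The alpha and gamma counts may also hold reads of constant exons, which the unshared length leaves out. Per kb of all exon bases the alpha median lay below the beta median, and the lead of gamma over beta narrowed. On that length Pcdha12 had a mean of 1.64 CPM per kb, Pcdhga11 5.69 and Pcdhb9 4.46. Within gamma, the 11 A-type genes had a median of 4.0 CPM per kb and the 7 B-type genes 3.21. The ordinary alpha genes ran from 0.141 to 3.54 CPM per kb, beta genes from 0.0377 to 4.46 and gamma genes from 0.464 to 10.3.

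Pcdhga11 stood above every other ordinary member, at 10.7 ± 1.06 CPM per kb in T29-1 Cre and 9.82 ± 1.11 in WT (SD, n = 4 each), and its range over libraries did not reach that of Pcdhga3, the next. Pcdhga3 had 6.45 ± 0.257 CPM per kb in T29-1 Cre and 5.95 ± 0.714 in WT. Pcdhgb6 had 5.37 ± 0.465 and 5.65 ± 0.474, and its lowest library lay barely above the highest of Pcdhb9. This order depends on the length used. Per kb of all exon bases the mean of Pcdhb9 was 4.459, above those of Pcdhga3 at 3.415 and Pcdhgb6 at 3.019. Since 52.4% of Pcdhga11's own bases are covered by an exon of the other strand, its level is uncertain to that extent.

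The leading beta genes were Pcdhb9, at 4.38 ± 0.451 CPM per kb in T29-1 Cre and 4.54 ± 0.245 in WT, Pcdhb17, at 3.84 ± 0.184 and 3.85 ± 0.275, and Pcdhb20, at 3.54 ± 0.268 and 3.12 ± 0.285 (SD, n = 4 each). The leading ordinary alpha genes were Pcdha12, at 3.81 ± 0.455 CPM per kb in T29-1 Cre and 3.26 ± 0.629 in WT, and Pcdha9, at 2.62 ± 0.37 and 2.67 ± 0.497. At the other end, Pcdha8 had 0.173 ± 0.0452 CPM per kb in T29-1 Cre and 0.11 ± 0.0101 in WT, and Pcdhb1 0.0477 ± 0.0116 and 0.0277 ± 0.027. The lowest tested members of each cluster were Pcdhgb8, which the annotation lists as a polymorphic pseudogene, Pcdha1 and Pcdhb6, with means over all libraries of 0.464, 0.700 and 0.770 CPM per kb. Of the 52 pairs of neighbours in the order of levels, 47 overlapped in their ranges over libraries. The 5 gaps lay between Pcdhgc5 and Pcdhac2, Pcdhga11 and Pcdhga3, Pcdhgb6 and Pcdhb9, Pcdhgb8 and Pcdha8, and Pcdha8 and Pcdhb1.

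**Figure D3:**
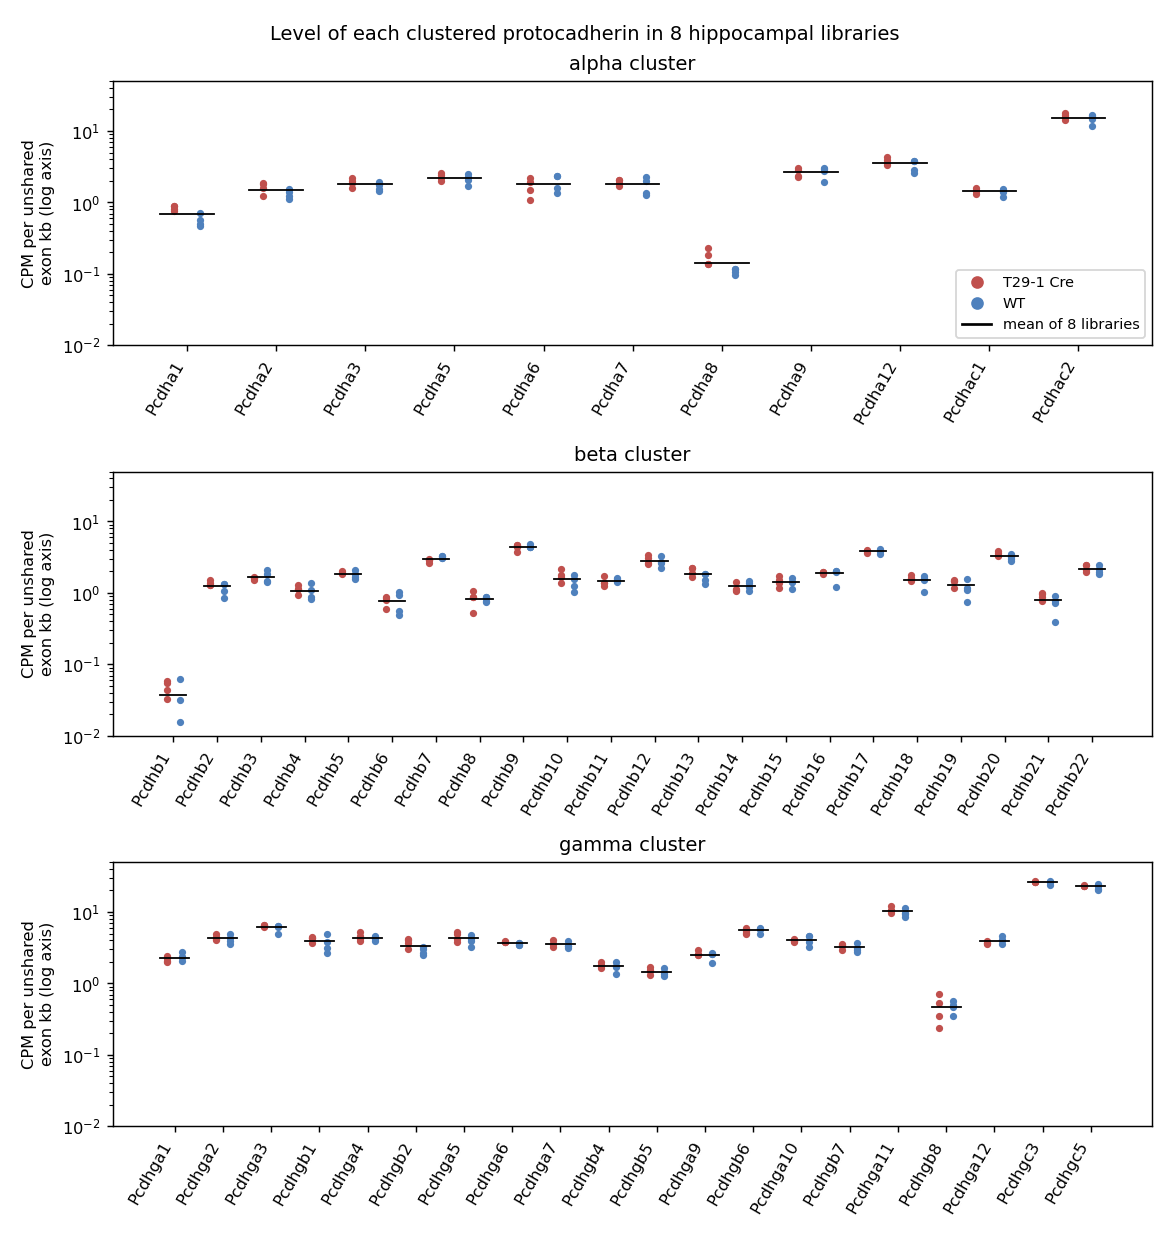
Level of the 53 members with a length, in CPM per kb of unshared exon on a log axis, in chromosome order within each cluster. Each point is a library, T29-1 Cre left of WT, a library at 0 is not drawn, and lines give the mean of 8 libraries. Pcdhgc3, Pcdhgc5 and Pcdhac2 lie above the rest, and Pcdhb1 and Pcdha8 far below.

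The correlation of level with place took a different value in each cluster, and whether the clusters differ in this was not tested. The Spearman correlation of level with start position was 0.6 over the 9 ordinary alpha genes, 0.295 over the 22 beta genes and -0.141 over the 18 ordinary gamma genes. These are descriptions across genes that share libraries, promoter type and, in part, exons. Over the 49 members other than C-type the correlation of level with GC content of the unshared bases was 0.294 and with their length -0.202.

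Most members varied between libraries of 1 genotype by more than counting alone gives. The median coefficient of variation of members was 9.43% in T29-1 Cre and 13.7% in WT, where Poisson counting at these depths would give 6.76%. The median chi-square per degree of freedom was 1.93 in T29-1 Cre and 3.65 in WT, or 3.06 in WT without replicate 4. In T29-1 Cre the cluster medians were 1.88 for alpha, 1.98 for beta and 1.61 for gamma, against 3.75, 5.28 and 3.55 in WT.

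Examples show the range of this variation. Pcdha6 held 2.49, 5.08, 3.47 and 4.46 CPM in T29-1 Cre and 5.42, 3.59, 5.29 and 3.05 CPM in WT. Both genotypes thus held a library at about the same low and the same high level. Pcdhb6 held 2.27, 3.31, 2.96 and 3.23 CPM in T29-1 Cre and 1.87, 3.91, 3.46 and 2.13 CPM in WT. Pcdhgb8 held 0.869, 0.602, 1.77 and 1.31 CPM in T29-1 Cre and 1.42, 1.25, 0.881 and 1.17 CPM in WT. In Pcdhb6 the WT libraries lay on both sides of the T29-1 Cre libraries, and in Pcdhgb8 the libraries of the genotypes were intermixed. In T29-1 Cre Pcdhgc3 had the lowest coefficient of variation (1.51%), with 91.4, 89.4, 88.5 and 88.5 CPM. Its counts are among the highest, and Poisson counting would give it 2.07%. Against counting alone it was not the steadiest in T29-1 Cre, with a chi-square per degree of freedom of 0.546 where Pcdhga6 had 0.123. In WT Pcdhgc3 held 89.4, 88.2, 91.5 and 80.1 CPM, so that WT replicate 4 alone lay apart. Its coefficient of variation in WT was 5.75%. Against counting alone it was not steady there, with a chi-square per degree of freedom of 7.35 where the median of members was 3.65. Fitted by edgeR, the median biological coefficient of variation of members was 9.8% (alpha 11.3%, beta 11%, gamma 8.68%), against 7.31% over all genes tested and 8.73% over 2054 other genes of similar expression.

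Between the genotypes, 0 of 55 tested members passed the threshold of an adjusted p under 0.05 (edgeR quasi-likelihood test, adjusted over 15996 genes), where 0.00625% of all genes tested passed. At an unadjusted p under 0.05 there were 4 members, Pcdhgb2, Pcdha1, Pcdhb13 and Pcdhb7, where the share of all genes was 2.43%. DESeq2 called 0 members with 3 at that level, and limma-voom 0 with 4. All T29-1 Cre libraries lay above all WT libraries for 2 members, Pcdha1 and Pcdhga6, where 0.844% of all genes did so. They lay below for 1 member, Pcdhb7, where 0.963% of all genes did so. The 95% interval of the fold change stayed within 1.5-fold in either direction for 47 of 55 members and within 2-fold for all 55.

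Values were higher in T29-1 Cre for 42 members and lower for 13, against 7955 and 8041 of all genes tested. The median log2 fold change was 0.16 for alpha members (10 higher, 2 lower), 0.09 for beta (15 and 6) and 0.08 for gamma (17 and 5), against -0.00075 over all genes tested. These counts rest in part on 1 library. Without WT replicate 4 the medians were 0.08, 0.02 and 0.03, and 36 members were higher and 19 lower (alpha 10 and 2, beta 11 and 10, gamma 15 and 7). The beta median was also 0.02 without T29-1 Cre replicate 2, and 0.16 when WT replicate 3 was left out. Beside these values, T29-1 Cre was lower than WT for each of 7 oligodendrocyte markers (median log2 fold change -0.08, summed level 3490 to 3820 CPM in T29-1 Cre and 3560 to 4280 CPM in WT). It was also lower for each of 5 blood markers (median -0.30, 29.9 to 47.6 CPM in T29-1 Cre and 34.5 to 62 CPM in WT). Markers of principal neurons were lower for 7 of 8 (median -0.03) and of microglia for 4 of 5 (median -0.07). Choroid plexus markers were higher for all 3 tested (median 0.89), the largest median of the marker lists. Meningeal fibroblast markers were higher for 4 of 5 (median 0.05). In all of these lists 0 genes were called, and their part in the members' values was not tested.

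WT replicate 4 was the lowest of the 4 WT libraries for 30 of 55 tested members and the lowest of all 8 for 27. The median log2 ratio of WT replicate 4 to the mean of the other WT libraries was -0.24 for tested members, against -0.01 for all genes over 1 CPM. Across 13481 genes this ratio had a Spearman correlation of -0.476 with exon length. The median exon length was 4.76 kb for members and 4.56 kb over all genes. In 2201 other genes with exon lengths between the quartiles of the members, the median ratio was 0.00378. The part of exon length in the low member values of this library was not tested.

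**Figure D4:**
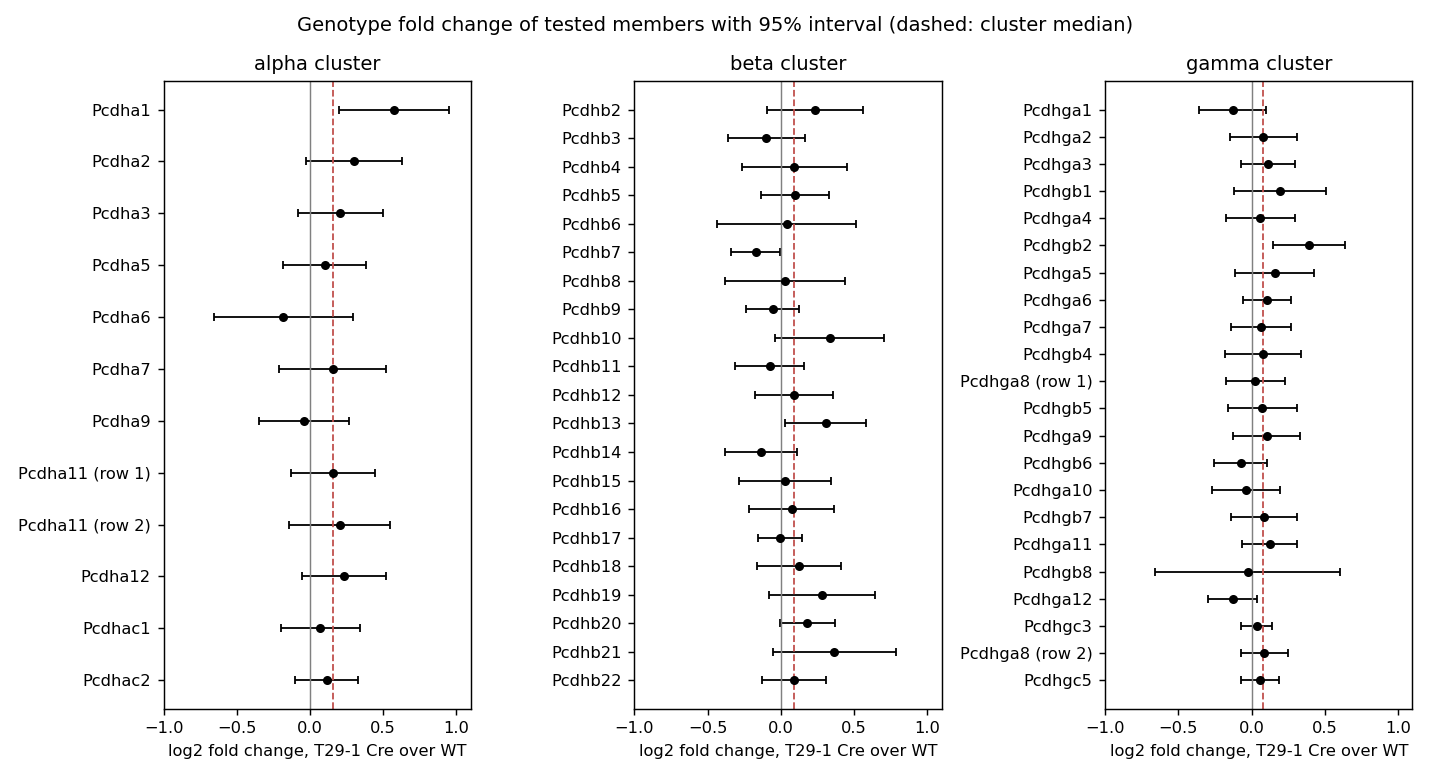
Log2 fold change of T29-1 Cre over WT for the 55 tested members, in chromosome order within each cluster, with 95% intervals from the edgeR fit. Grey lines mark 0 and dashed lines the median of the cluster, 0.16 for alpha, 0.09 for beta and 0.08 for gamma. Intervals that leave out 0 belong to Pcdha1, Pcdhb7, Pcdhb13 and Pcdhgb2.

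In the gamma cluster the highest value was that of Pcdhgb2 (ENSMUSG00000102748.1, start 37689828), an ordinary B-type gene and the member whose difference was known beforehand. It held 8.35, 10.3, 11.6 and 11.1 CPM in T29-1 Cre and 6.88, 7.46, 8.88 and 8.27 CPM in WT. T29-1 Cre replicate 1 lay below WT replicate 3, so the genotypes overlapped, with the other 3 T29-1 Cre libraries above all WT libraries. The log2 fold change was 0.39 (SE 0.116, 95% interval 0.14 to 0.64), and 43.4% of its exon bases are constant exons or other shared sequence.

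Pcdhgb1, whose own exon shares 141 read-length stretches with Pcdhgb2, held 9.52, 11.6, 11.2 and 11.4 CPM in T29-1 Cre and 9.88, 8.31, 12.7 and 7.06 CPM in WT. Its WT libraries spanned those of T29-1 Cre, and its log2 fold change of 0.19 (SE 0.146) was 0.08 without WT replicate 4. The lowest gamma values were those of Pcdhga1, with 6.57, 7.40, 7.80 and 6.67 CPM in T29-1 Cre and 7.75, 7.70, 8.91 and 6.64 CPM in WT, and Pcdhga12. Pcdhga12 held 16.7, 18.1, 16.9 and 16.4 CPM in T29-1 Cre and 18.6, 18.4, 20.9 and 16.5 CPM in WT. On the log2 scale both differed by -0.13 (SE 0.107 and 0.077), with overlapping libraries.

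Pcdhga6 was named after its values were seen, because its genotypes did not overlap. It held 10.4, 9.98, 9.89 and 10.1 CPM in T29-1 Cre and 9.13, 9.60, 9.69 and 9.03 CPM in WT. The gap between the groups was narrow and the log2 fold change 0.11 (SE 0.0754). Pcdhga11, the highest ordinary member, held 27.4, 27.9, 32.1 and 25.5 CPM in T29-1 Cre and 29.8, 25.9, 25.1 and 22.8 CPM in WT, a log2 fold change of 0.12 (SE 0.0868). For Pcdhgb8 it was -0.03 (SE 0.293).

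The gamma C-type genes lay near 0 on this scale. Pcdhgc5 held 105.5, 108.2, 104.8 and 110.2 CPM in T29-1 Cre and 113.1, 95.7, 107.9 and 94.2 CPM in WT, with a log2 fold change of 0.06 (SE 0.0606, 95% interval -0.07 to 0.19). For Pcdhgc3 it was 0.03 (SE 0.0507, 95% interval -0.07 to 0.14), and -0.00425 without WT replicate 4. The remaining gamma rows ran from Pcdhgb6 at -0.07 (SE 0.0848) to Pcdhga5 at 0.16 (SE 0.125).

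In the alpha cluster the highest value was that of Pcdha1 (ENSMUSG00000103442.5, start 36930184), which has the outermost promoter of the cluster. It held 2.23, 1.89, 2.24 and 1.99 CPM in T29-1 Cre and 1.76, 1.25, 1.40 and 1.17 CPM in WT. Its libraries did not overlap, on 44 to 62 counts in T29-1 Cre libraries and 28 to 47 in WT libraries, and the log2 fold change was 0.58 (SE 0.174, 95% interval 0.20 to 0.95). Pcdha1 shares read-length stretches with other alpha genes, 60 with a Pcdha11 gene and 56 with Pcdha9, so a few of its reads are uncertain. Pcdha9 held 5.74, 7.14, 5.67 and 7.42 CPM in T29-1 Cre and 6.81, 7.26, 7.61 and 4.85 CPM in WT, a log2 fold change of -0.04 (SE 0.143).

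Pcdha2, the next promoter after Pcdha1, held 4.57, 3.999, 3.10 and 4.65 CPM in T29-1 Cre and 3.82, 3.106, 3.46 and 2.80 CPM in WT. The groups overlapped through T29-1 Cre replicate 3, and the log2 fold change was 0.30 (SE 0.153). Pcdha12 held 9.82, 8.82, 10.8 and 8.29 CPM in T29-1 Cre and 9.39, 9.40, 6.46 and 6.98 CPM in WT, a log2 fold change of 0.23 (SE 0.133) with overlapping groups. Pcdha6, at -0.18 (SE 0.221), had the lowest alpha value. Pcdha3, Pcdha5, Pcdha7 and both Pcdha11 rows lay between 0.10 for Pcdha5 (SE 0.133) and 0.21 for Pcdha3 (SE 0.135), each with overlapping groups.

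Of the alpha C-type genes, Pcdhac2 held 42.8, 49.9, 48.2 and 53.4 CPM in T29-1 Cre and 51.1, 44.3, 48.7 and 35.1 CPM in WT. WT replicate 4 lay below all others and T29-1 Cre replicate 1 was the next lowest, and the log2 fold change was 0.11 (SE 0.0994), or 0.02 at the lowest over all alternatives. Pcdhac1 held 3.40, 4.13, 3.68 and 3.79 CPM in T29-1 Cre and 3.89, 3.71, 3.62 and 3.01 CPM in WT, at 0.07 (SE 0.125). Both therefore overlapped between the genotypes.

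In the beta cluster, whose genes have no constant exons, Pcdhb13 (start 37442500) held 7.14, 8.26, 8.23 and 6.19 CPM in T29-1 Cre and 4.94, 6.74, 6.76 and 5.60 CPM in WT. The groups overlapped through T29-1 Cre replicate 4, and the log2 fold change was 0.31 (SE 0.128, 95% interval 0.03 to 0.58). Pcdhb7 (start 37341702) held 9.07, 10.2, 10.4 and 10.2 CPM in T29-1 Cre and 10.9, 10.8, 11.5 and 11.7 CPM in WT. It was the 1 member with every T29-1 Cre library below every WT library, at -0.17 (SE 0.0779).

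**Figure D5:**
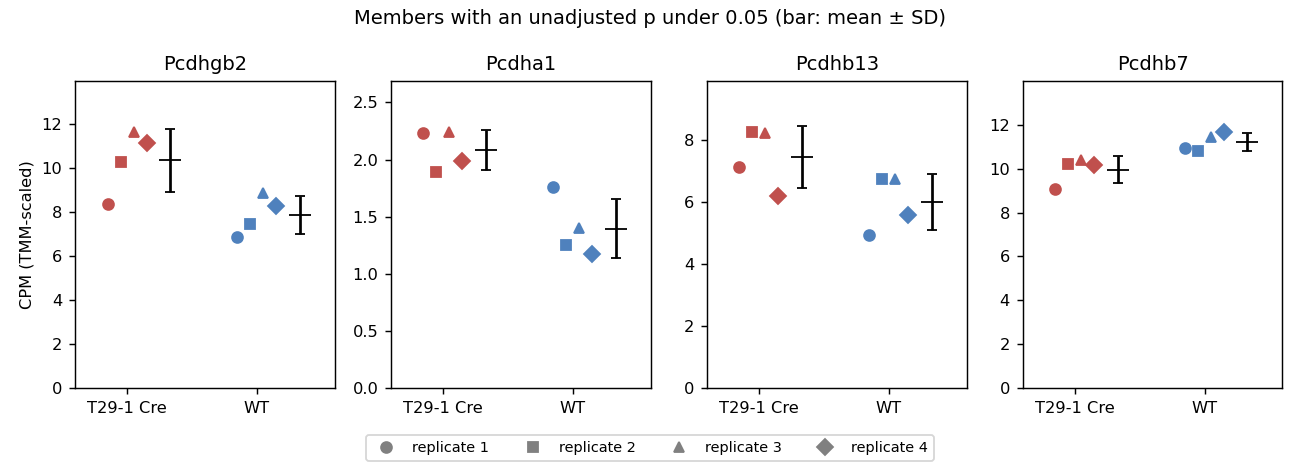
CPM of Pcdhgb2, Pcdha1, Pcdhb13 and Pcdhb7, the members at an unadjusted p under 0.05, in each library, T29-1 Cre left of WT. Points are libraries, shaped by replicate number, bars give the mean ± SD of 4 libraries, and each axis starts at 0. Groups overlap for Pcdhgb2 and Pcdhb13 and are apart for Pcdha1 and Pcdhb7.

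The highest beta values were those of Pcdhb21 and Pcdhb10. Pcdhb21 held 3.32, 4.17, 3.75 and 4.31 CPM in T29-1 Cre and 3.33, 3.106, 3.82 and 1.67 CPM in WT, a log2 fold change of 0.37 (SE 0.197) that was 0.18 at the lowest over all alternatives. Pcdhb10 held 5.14, 4.82, 3.94 and 6.07 CPM in T29-1 Cre and 4.42, 3.59, 2.90 and 5.01 CPM in WT, at 0.33 (SE 0.174). In Pcdhb21 WT replicate 4 lay far below the rest, and in Pcdhb10 both groups spread widely. Pcdhb14, the lowest after Pcdhb7, held 9.33, 9.89, 9.46 and 12.2 CPM in T29-1 Cre and 10.7, 12.1, 12.8 and 9.23 CPM in WT, at -0.14 (SE 0.115).

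The most abundant beta genes overlapped between the genotypes. Pcdhb9 held 11.4, 14.2, 13.4 and 14.6 CPM in T29-1 Cre and 13.5, 13.4, 14.98 and 13.5 CPM in WT, at -0.05 (SE 0.0845). Pcdhb17 held 18.8, 18.1, 17.9 and 16.7 CPM in T29-1 Cre and 18.0, 16.4, 19.5 and 17.9 CPM in WT, at -0.01 (SE 0.0702). Pcdhb20 held 11.8, 12, 13.9 and 12.8 CPM in T29-1 Cre and 11.2, 10.04, 12.4 and 10.7 CPM in WT, at 0.18 (SE 0.0873). Of these only Pcdhb20 had a higher mean in T29-1 Cre, and its groups overlapped through WT replicate 3. The beta rows not described singly ran from Pcdhb3 at -0.10 (SE 0.122) to Pcdhb19 at 0.28 (SE 0.168), and the groups overlapped in each.

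Genes that act on or with the family were read from the same fit. Of 19 tested regulators of the cluster, among them Ctcf, Rad21 and other cohesin subunits, Smchd1, Setdb1 and DNA methyltransferases, 0 were called and 0 had an unadjusted p under 0.05 (edgeR quasi-likelihood). The median of the list was 0.02 on the log2 scale, with 15 of 19 higher in T29-1 Cre, and 10 of 19 without WT replicate 4. For 1 of them all T29-1 Cre libraries lay above all WT libraries, where 0.844% of all genes did so. The gene with the smallest p was Dnmt3a, a DNA methyltransferase, with a log2 fold change of 0.15 (SE 0.0718). Of 25 tested partners and effectors, such as the kinases Fyn and Ptk2b and the WAVE complex, 0 were called and 0 had an unadjusted p under 0.05, with a median of 0.00483 and Nlgn1, a synaptic adhesion gene, at 0.14 (SE 0.0812).

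Of 12 non-clustered protocadherins, single genes outside the clusters, 0 were called and 3 had an unadjusted p under 0.05. Their median log2 fold change was 0.13 with 11 of 12 higher in T29-1 Cre, and without WT replicate 4 it was 0.07 with 9 of 12 higher and 1 at an unadjusted p under 0.05. The smallest p was that of Pcdh11x, at 11.8 CPM in T29-1 Cre and 9.27 CPM in WT, a log2 fold change of 0.35 (SE 0.113). Of 18 tested genes that neighbour the clusters on the chromosome, 0 were called and 1 had an unadjusted p under 0.05, Ndufa2, a subunit of respiratory complex I, at -0.17 (SE 0.0776). Their median was -0.01. Over the same lists DESeq2 and limma-voom also called 0 genes.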

How the data were processed

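Hippocampal poly(A) RNA was read as 150 bp paired ends from a directional kit, per the labels' protocols. The build was GRCm38 and the tools STAR 2.6.1d, featureCounts and edgeR 3.11, per the submitters' processing notes. The annotation release, strand setting and rule for shared reads are not stated. The authors deposited whole-number, unscaled read counts per gene name, and 0 count columns were left unmapped. The authors' own table of their comparison was not used.

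In R 4.3.3, edgeR 4.0.16 fitted all 8 libraries with no covariate. Genes were kept by filterByExpr (minimum count 10, minimum total 15), libraries were scaled by TMM, and the quasi-likelihood F test compared T29-1 Cre with WT, with Benjamini-Hochberg adjustment over 15996 genes and a threshold of 0.05. The SE is the size of the log2 fold change over the square root of F. Exon lengths came from GENCODE M21, matched by name. Alternatives were DESeq2 1.42.0, limma-voom (limma 3.58.1), RLE scaling, no filter, a replicate block, each library left out in turn, the full exon length and sums of levels per kb. The fit was tested on simulated data. The comparison of WT replicate 4 with exon length, and the ratio of the highest to the median member, were chosen after the data were seen.

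Members and gene lists were chosen with earlier results of these data known. Values per library are given for C-type members, Pcdhgb2, the 3 highest and the lowest tested member of each cluster by level, members at an unadjusted p under 0.05, and the 2 highest and 2 lowest fold changes of each cluster. From other lists the gene with the smallest p is named. Libraries of a genotype differed by more than counting error (chi-square over its degrees of freedom 3.33 to 19.2), so each was counted once.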

Additional observations from a re-analysis of the deposited data

Results flagged for a closer look

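In each genotype, the 4 libraries were screened for a single library far from the other 3, over 30 measures (60 groups in all). Such a library was found in 2 of the 60 groups, a smaller share than the 1 in 20 or so that chance gives. Pcdhb7 was at 9.07 CPM in T29-1 Cre replicate 1, against 10.2 to 10.4 CPM in the other T29-1 Cre libraries. Pcdhb9 was at 15 CPM in WT replicate 3, against 13.4 to 13.5 CPM in the other WT libraries. Neither library stood apart on the first principal component.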

How the results depend on the processing

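No member was called in any of the 13 alternatives (2 other tools, another scaling, no filter, the block and each of the 8 libraries left out), with 2 to 7 members at an unadjusted p under 0.05. Over all genes 2 were called with no filter on low counts and 2 with the replicate block, against 1 otherwise, and the cause was not tested. The replicate block called 0 members, with 6 at an unadjusted p under 0.05. Same-numbered libraries showed no clear shared deviation (correlations -0.0732, 0.0535, 0.0179 and -0.0345). A weak shared effect could be missed by these values, so they do not settle whether the numbers pair the samples. Of 312 values of the 24 named members under the alternatives, 16 were of the other sign, in Pcdha9, Pcdhb6, Pcdhb9, Pcdhb17, Pcdhgb8 and Pcdhgc3. The highest member stood 12 times above the median member, 10.2 times with the full exon length and 11.8 to 12.3 times with a library left out. The order of members by level depended more on the length used. Its Spearman correlation with the main order was 0.856 with the full exon length and 0.997 to 0.999 with a library left out. By sums of levels per kb alpha held 17.2% and beta 21%, against 14.2% and 24.5% by counts. The counts of Pcdha8, Pcdhb1 and Pcdha4 were too low to be tested. For Pcdha4, with 91.4% of its exon bases shared, depth and the counting of shared reads cannot be told apart.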
